A study of Sus scrofa with 16 samples.

Results

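The genes described here are 4 homeobox genes of the HOX clusters, HOXA9, HOXD8, HOXD10 and HOXA3, the homeobox cofactor MEIS2, and SKAP2, a gene beside the HOXA cluster. They were taken by name, as every probe set whose single gene symbol is one of the 6, out of 6765 genes with a symbol of their own on the array. They have 9 of the 24123 probe sets, 1 for each HOX gene, 2 for MEIS2 and 3 for SKAP2, numbered here by their mean over all arrays, highest first. The 6 were picked with earlier results of these data known and for how they differed between the muscles, so that their muscle differences are given as a description, with no test.

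Expression was measured in psoas major, a muscle beside the lumbar spine, and in diaphragm, the main breathing muscle, of 8 Iberian pigs slaughtered at 211 days of age. Animals 2, 3, 5 and 8 were under 20% feed restriction, and animals 1, 4, 6 and 7 were on the high feeding level. Animals 5, 6, 7 and 8 were female and animals 1, 2, 3 and 4 male, so that each sex had 2 animals on each feeding level. Each animal gave 1 Affymetrix array per muscle, 16 in all, and no other allele, agent or treatment is named for any group. All animals ate the same pelleted diet before the restriction began. When it began, and whether the males were castrated, is not given in the sources used here.

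HOX genes encode transcription factors that lie in clusters, and in vertebrate embryos their order along a cluster matches the order in which they are used from head to tail. Genes at one end of a cluster mark anterior positions and those at the other end posterior ones, and cells of adult muscle and connective tissue can keep such a pattern. MEIS and PBX proteins, homeobox proteins of the TALE class, bind DNA together with HOX proteins. SKAP2 is a cytoplasmic adaptor of Src-family kinase and integrin signalling, described above all in leukocytes, and has no homeobox.

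In the annotation of assembly Sscrofa11.1, SKAP2 lay past the anterior end of the HOXA cluster. The annotated HOXA3 model overlapped those of 4 other genes, among them HOXA4, HOXA5 and HOXA6, and the HOXD10 model overlapped HOXD9. Which of the overlapping transcripts the probe sets of HOXA3 and HOXD10 read was not tested. The deposited values name no genome build, and the assembly was used for gene names and gene order alone.

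The values are the authors' log2 expression values, made with GCRMA per the submitters' processing notes, so that a difference of 1 is a doubling. A probe set was tested where at least 4 arrays reached a log2 value of 4, which left 11467, among them 8 of the 9 described here. The exception was SKAP2 probe set 3, which reached 4 on 2 diaphragm arrays and on 0 psoas arrays. A probe set under 4 on every array of a muscle has only a bound there, and the fold change is then given as at least the ratio of the other muscle's mean to 4. Different probe sets bind differently, so that their levels are not set against each other.

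As checks of the arrays, any 2 arrays of the same muscle correlated at 0.984 to 0.995, and 0 pairs were identical. The mean of 11 skeletal muscle markers was 14.3 to 14.5 on the psoas arrays and 14.3 to 14.5 on the diaphragm arrays. Of the 11, the fast-fibre troponins TNNI2 and TNNT3 were higher in psoas and the slow-fibre troponins TNNI1 and TNNT1 lower (adjusted p from 0.00669 to 0.0461). The diaphragm arrays of animals 1, 2, 3 and 5 had a larger gap between the 3' and 5' actin controls, a sign of RNA quality, at 4.07 to 4.33 (log2), than those of animals 4, 6, 7 and 8, at 3.35 to 3.49. Muscle differences are therefore also given in animals 4, 6, 7 and 8 alone.

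HOXA9, a posterior HOX gene known for its part in blood stem cells and in the patterning of the trunk, had the largest gain in psoas of the 6 genes. Its log2 values ran from 10.10 over a median of 10.50 to 10.95 in psoas, against 5.14, 6.58 and 7.58 in diaphragm. The lowest psoas value thus stood well above the highest diaphragm value, and the diaphragm arrays spread more widely than the psoas arrays. The mean was 10.51 ± 0.33 in psoas and 6.48 ± 0.84 in diaphragm (SD, n = 8 each). The difference within an animal was 4.03 ± 0.77 (SD, n = 8), a 16.4-fold higher level in psoas, and it ran from 3.03 in animal 1 to 5.07 in animal 2. In animals 4, 6, 7 and 8 alone the difference was 3.99.

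HOXD8, of the middle of the HOXD cluster, differed the same way by a smaller step. It measured 8.08, 8.47 and 8.87 (lowest, median, highest) in psoas, against 5.54, 6.59 and 7.09 in diaphragm. Again no psoas array fell into the diaphragm range. The means were 8.49 ± 0.27 in psoas and 6.47 ± 0.54 in diaphragm (SD, n = 8 each), and the difference within an animal was 2.03 ± 0.56 (SD), or 4.07-fold. Animal 1 had the smallest step, 1.17, and animal 4 the largest, 2.82. The difference was 2.23 in animals 4, 6, 7 and 8 alone.

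HOXD10, a posterior HOXD gene known in mouse for the identity of hindlimb motor neurons, lay near the lower end of the measured range in diaphragm. In psoas it measured 4.33, 5.02 and 6.45 (lowest, median, highest), against 3.48, 4.14 and 4.31 in diaphragm, where 5 of 8 arrays reached 4. The ranges did not overlap, but only by the small gap between 4.33 in the psoas and 4.31 in the diaphragm of the same animal, animal 1, whose own difference was 0.02. Animal 7 stood at the other end with 6.45 in psoas against 4.28 in diaphragm, a difference of 2.17. The mean difference was 1.10 ± 0.62 (SD, n = 8), or 2.14-fold. It was 1.33 in animals 4, 6, 7 and 8 alone, which include animal 7 with its outlying psoas value. That array also had the largest actin gap of the psoas arrays.

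HOXA3, an anterior HOX gene needed in mouse for the pharyngeal arches and thymus, went the other way. Its values were 5.34, 5.96 and 6.48 (lowest, median, highest) in psoas, against 5.50, 6.43 and 7.29 in diaphragm, so that the 2 ranges overlapped broadly. Within each animal, however, psoas was below diaphragm in 8 of 8. The difference was -0.49 ± 0.37 (SD, n = 8), from -1.07 in animal 8 to -0.09 in animal 2, which is 1.41-fold lower in psoas. In animals 4, 6, 7 and 8 alone it was -0.50.

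MEIS2, a TALE homeobox cofactor with known roles in heart and cranial neural crest development, had the largest difference of the 6 genes. Its probe set 1 measured 3.14, 3.49 and 3.59 (lowest, median, highest) in psoas, against 8.36, 8.69 and 9.11 in diaphragm. Every psoas array was thus under 4 and every diaphragm array well above it. With means of 3.47 ± 0.14 in psoas and 8.71 ± 0.22 in diaphragm (SD, n = 8 each), MEIS2 was at least 26.1-fold lower in psoas. The measured difference was -5.24 ± 0.26 (SD), and -5.11 in animals 4, 6, 7 and 8 alone.

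MEIS2 probe set 2 split the muscles the same way. It measured 2.38, 2.56 and 2.61 in psoas, against 5.06, 5.57 and 5.93 in diaphragm, a level at least 2.96-fold lower in psoas. The measured difference was -3.04 ± 0.26 (SD, n = 8). Both MEIS2 probe sets followed each other over the 16 arrays (Pearson's r = 0.992), which is set by the muscles, since after removal of muscle, sex and feeding level r was 0.0531. That second r includes the psoas values, all under 4, so it does not tell whether the probe sets vary together.

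SKAP2 was also lower in psoas, on each of its probe sets. Probe set 1 measured 4.36, 4.66 and 4.82 in psoas, against 6.14, 6.42 and 6.70 in diaphragm, with no overlap. The difference was -1.81 ± 0.15 (SD, n = 8), a 3.50-fold lower level in psoas, and it varied little, from -2.05 to -1.68 over the animals. Probe set 2 lay between 3.48 and 3.99 in psoas, under 4 on each array, against 4.37 to 5.22 in diaphragm, which is at least 1.67-fold lower in psoas. Probe set 3, which was not tested, had 2.35 to 3.27 in psoas, against 3.35 to 4.86 in diaphragm. In animals 4, 6, 7 and 8 alone probe sets 1 and 2 differed by -1.78 and -1.22.

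Over the 8 tested probe sets, psoas and diaphragm did not overlap for 3 that were higher in psoas and 4 that were lower, HOXA3 being the exception. Among all 11467 tested probe sets 3.72% did not overlap, 2.08% higher and 1.63% lower in psoas. The sign was the same in 8 of 8 animals for 8 of 8 probe sets, and for 21.4% of all tested. Between the muscles 27% of all were called at an adjusted p under 0.05. The genes were picked on this contrast, so nothing is read from these shares.

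**Figure D1:**
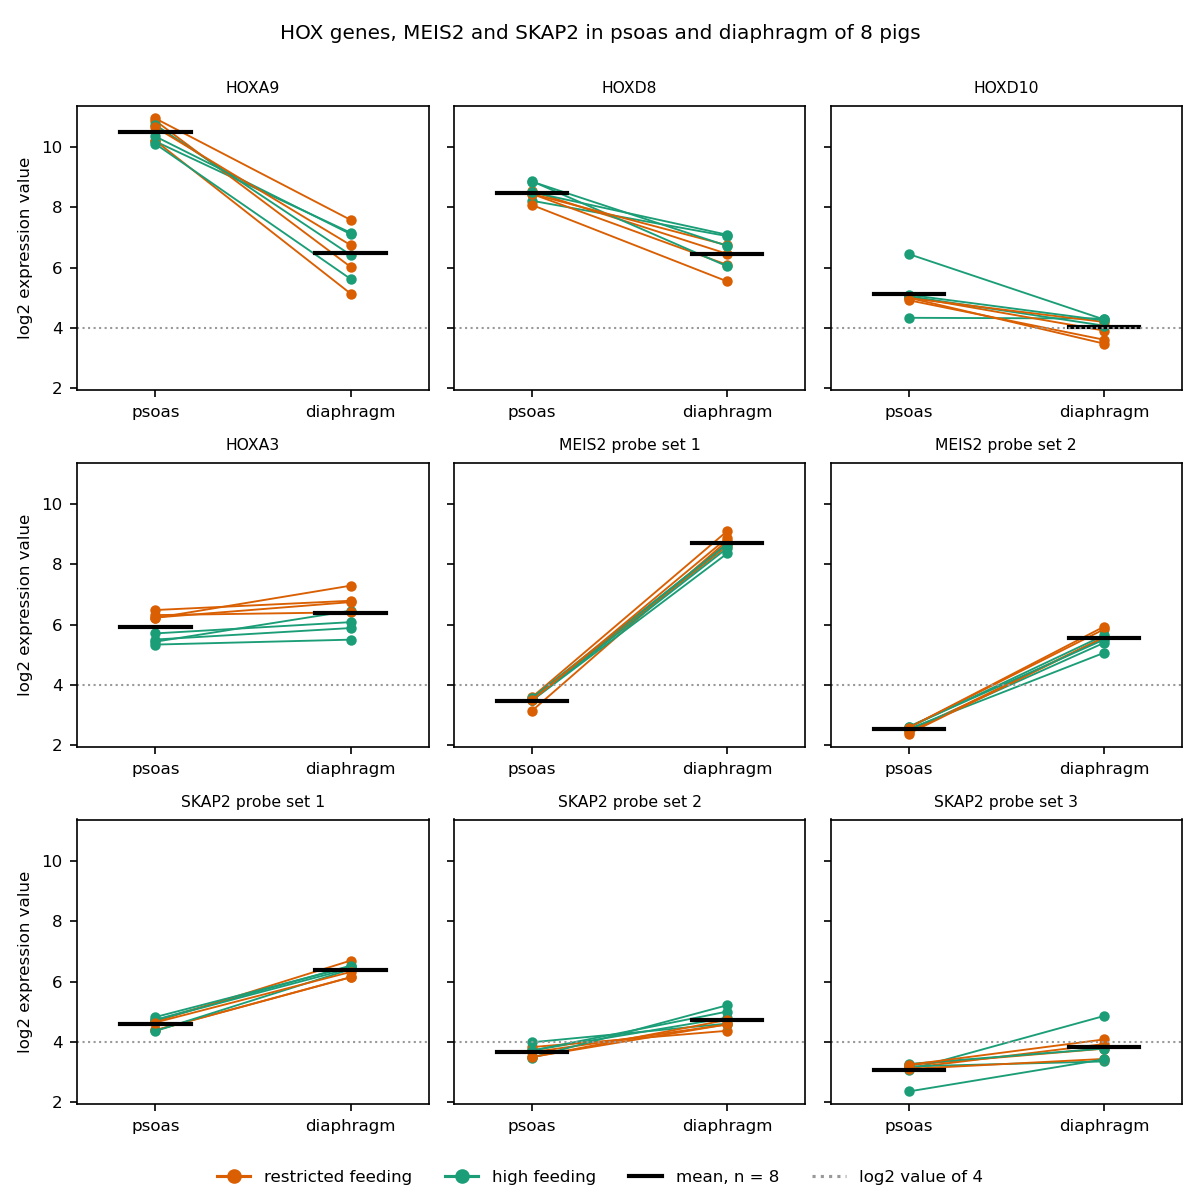
Log2 expression value of each probe set (vertical axis) in psoas (left of each panel) and diaphragm (right), with a line joining the 2 muscles of 1 animal, orange for restricted and green for high feeding, a bar at the mean of 8 arrays, and a dotted line at 4. HOXA9 and HOXD8 points lie higher in psoas than in diaphragm without overlap, both MEIS2 panels have every psoas point under 4, and in HOXA3 the orange and green lines separate in psoas.

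**Figure D2:**
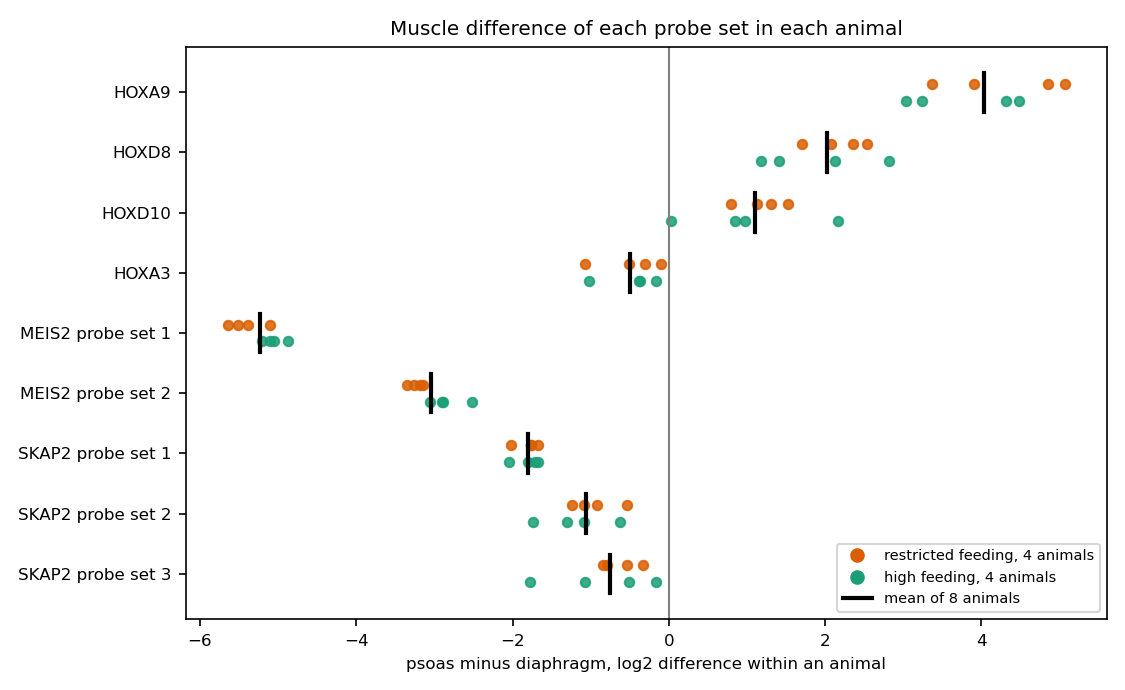
Psoas minus diaphragm difference within each animal (horizontal axis, log2), 1 row per probe set, orange for the 4 restricted and green for the 4 high-fed animals, with a bar at the mean of 8. Values run from -5.64 for MEIS2 to 5.07 for HOXA9, and every gene keeps its sign in 8 of 8 animals, with HOXD10 closest to 0 in animal 1.

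The genes differed in how much the arrays varied once muscle, sex and feeding level were removed. The residual SD of HOXA9 was 0.51, at the 95.6th percentile of all tested probe sets, followed by 0.39 for HOXD10, 0.36 for HOXD8 and 0.25 for HOXA3. It was 0.16 and 0.17 for the MEIS2 probe sets and 0.15 for SKAP2 probe set 1, at the 23.7th percentile. The HOX genes of the psoas-high group thus varied more over the arrays than most probe sets, and MEIS2 and SKAP2 less. The spread of HOXD10 includes the psoas array of animal 7, at 6.45 with the next at 5.10. Probe sets at the low end are compressed by the GCRMA background correction, which holds for MEIS2 in psoas.

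Markers of other cell types moved with the muscles too. Of all tested probe sets 27% were called between psoas and diaphragm. In bulk tissue, fewer cells of a type and less RNA per cell cannot be told apart. Of 6 fibroblast markers 5 were lower in psoas, where the mean of the 6 was 7.28 to 8.05 per array, against 8.07 to 8.88 in diaphragm. Of 7 tested endothelial markers 6 were lower in psoas, with list means of 6.11 to 6.58 against 6.70 to 7.14. Of 4 tested immune markers 3 were lower in psoas, with list means of 4.28 to 4.74 against 4.67 to 5.38, while the pan-leukocyte gene PTPRC and the markers CD14, CD3E and CD4 were under 4 on every array of both muscles. The part of these cells in the lower MEIS2, SKAP2 and HOXA3 values of psoas was not tested. The most negative log2 difference in each of the 3 lists was -0.80 for DPT, -0.88 for PECAM1 and -0.97 for SLA-DQA1. Of the adipocyte markers 2 of 3 tested were lower in psoas (FABP4 by -1.31), of the Schwann cell and nerve markers 1 of 2 (MBP), and of 5 smooth muscle and pericyte markers CNN1 was higher (2.08) and RGS5 lower (-0.71).

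Hepatocyte markers were the other list that differed. All 7 tested of 10 were lower in psoas, and the mean of the 10 was 2.95 to 3.41 per psoas array, against 3.30 to 6.59 per diaphragm array. The median log2 difference of the 7, which the filter favours in this direction, was -2.49, against -1.81 for SKAP2 probe set 1. The serum protein gene ALB differed by -4.77 and the fibrinogen gene FGB by -3.94, with psoas values that were all under 4, as those of MEIS2 were. The diaphragm lies against the liver, and the part of liver tissue in the lower MEIS2, SKAP2 and HOXA3 values of psoas was not tested. The diaphragm with the highest list value, 6.59 in animal 8, had 8.87 for MEIS2 probe set 1 and 6.32 for SKAP2 probe set 1, and the one with the lowest, 3.30 in animal 3, had 8.61 and 6.70. All 5 mesothelial markers on the array were under 4 on every array.

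Among other HOX genes, 39 names were searched and 6 were on the array with a symbol of their own. The 2 that are not described above, HOXB7 and HOXD12, were under 4 on all 16 arrays, so that nothing can be said of them beyond that. The pattern described here is therefore that of the 4 HOX genes that could be measured, 2 of the HOXA and 2 of the HOXD cluster.

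Of the TALE cofactors 4 others were tested, and 1 changed between the muscles. This share is near the 27% of all tested probe sets that were called, so nothing is read from the count. MEIS1, the paralogue of MEIS2, measured 6.18 to 7.28 in psoas, against 4.95 to 6.32 in diaphragm. The ranges overlapped slightly, and psoas was higher in 8 of 8 animals. The difference of MEIS1 was 1.12 ± 0.15 (SE), 2.18-fold higher in psoas, with an adjusted p of 0.000162 (limma, over all tested probe sets). MEIS1 is no member of the 6 genes, and its direction was the opposite of that of MEIS2. Another MEIS1 probe set was under 4 on every array, at 2.56 to 2.94, and was not tested.

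The MEIS1 call held in each of the 16 alternatives, with adjusted p from 0.000113 to 0.0328. The other tested TALE genes, PBX2 (0.03, adjusted p = 0.828), PKNOX2 (0.14, 0.479) and TGIF1 (0.22, 0.19), did not pass the test. With the animal as a block TGIF1 passed it as well (adjusted p = 0.0288). The median of the 4 differences was 0.18, against 0.04 over all genes tested.

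Other genes beside the HOXA cluster, where SKAP2 lies, were tested as a list. Of 4, 0 were called by limma, and 2 had an unadjusted p under 0.05. Over all 11467 tested probe sets 27% were called, and 4552 had an unadjusted p under 0.05. CBX3, a heterochromatin protein gene, differed by -0.21 ± 0.08 (SE, adjusted p = 0.0518), TAX1BP1, an autophagy receptor, by -0.17 (0.107), and SNX10, a sorting nexin, by -0.27 (0.306). HNRNPA2B1, an RNA-binding protein gene, differed by -0.01 on its brightest probe set, while its other 2 probe sets were higher in psoas by 0.42 (adjusted p = 0.0209) and 0.33 (0.0466). The list median was -0.19, against 0.04 over all genes tested. CBX3 was called in 4 of 16 alternatives, among them the one without animal 4.

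Around the HOXB, HOXC and HOXD clusters 12 genes were tested, 2 of them called, both higher in psoas. Since 27% of all tested probe sets were called, nothing about these neighbours is read from the count. LNPK, an endoplasmic reticulum junction protein gene beside HOXD, was higher by 0.32 ± 0.07 (SE, adjusted p = 0.00519), and SNF8, a subunit of the ESCRT-II complex whose gene lies near HOXB, by 0.31 ± 0.07 (0.0067). With the animal as a block SMUG1 (0.22, adjusted p = 0.0445) and ATP5G3 (-0.22, 0.0467) were called too. The list median was 0.07. Each of these 4 differences is smaller in size than those of HOXA9, HOXD8 and HOXD10.

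**Figure D3:**
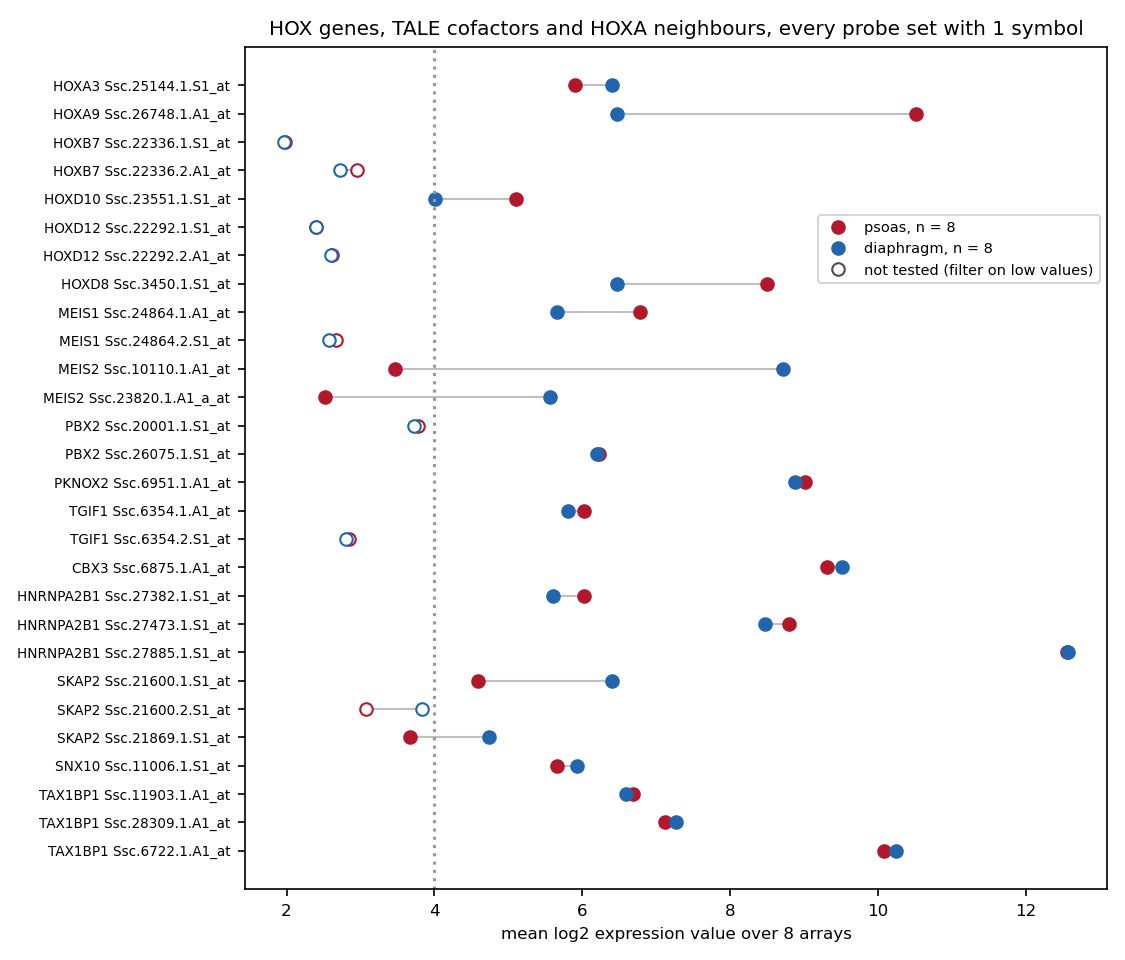
Mean log2 expression value over 8 arrays (horizontal axis) in psoas (red) and diaphragm (blue) for every probe set of the HOX genes, TALE cofactors and HOXA neighbours, 1 row each, with open circles for probe sets that were not tested and a dotted line at 4. HOXA9, HOXD8, HOXD10 and MEIS1 have the psoas point to the right, MEIS2, SKAP2 and HOXA3 the diaphragm point, and of the other genes 2 HNRNPA2B1 probe sets lie 0.42 and 0.33 higher in psoas.

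Chromatin regulators that keep HOX genes on or off were tested as a list of Polycomb and trithorax genes. Of 10, 2 were higher in psoas and 0 lower. With 27% of all tested probe sets called in either direction, nothing about the list is read from this count. RING1, a subunit of Polycomb repressive complexes, was higher by 0.29 ± 0.07 (SE, adjusted p = 0.00763), and CTCF, a factor that separates chromatin domains, by 0.30 ± 0.07 (0.0068). EED, a core subunit of the other Polycomb complex, differed by 0.02 (0.883). The list median was 0.09, against 0.04 over all genes tested. In animals 4, 6, 7 and 8 alone, which leaves 405 calls over all probe sets in place of 3094, LNPK, SNF8, RING1 and CTCF were not called (adjusted p from 0.123 to 0.3). Their differences there were 0.25, 0.25, 0.34 and 0.28, near those of all animals, with fewer arrays.

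Retinoic acid, made from vitamin A, switches on anterior HOX genes in the embryo. Of 3 tested genes of that pathway 1 was called, against 27% of all tested probe sets. ALDH1A1, which makes retinoic acid, was lower in psoas by -0.49 ± 0.15 on its brightest probe set (SE, adjusted p = 0.0225), but by -0.14 on another (0.553). That call was lost without animal 1 (-0.38, adjusted p = 0.0599), without animal 4 (-0.40, 0.0728) and without animal 7 (-0.48, 0.0503). The same held when low values were not filtered (-0.49, 0.0559) and in animals 4, 6, 7 and 8 alone (-0.62, 0.103). The receptors RXRB and RXRG differed by 0.20 (0.368) and 0.11 (0.553).

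Of 7 tested regional and muscle patterning factors 0 were called by limma, with 3 at an unadjusted p under 0.05. Among all 11467 tested probe sets 27% were called, with 4552 at an unadjusted p under 0.05. MYOD1, a master regulator of muscle identity, differed by 0.31 (adjusted p = 0.0583) and MEF2A, a muscle transcription factor, by 0.25 (0.088). With the animal as a block both passed (adjusted p = 0.0406 and 0.038). The list median was -0.07.

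Feeding level was compared on the mean of the 2 muscles of each animal. Of the 8 probe sets 0 were called by limma, which called 0% of all probe sets as well, and 2 had an unadjusted p under 0.05, as had 1451 of all 11467. These were HOXA3 and 1 SKAP2 probe set. The genes were chosen by a rule that names feeding level, with results of these data in view, so that these p-values are not independent evidence.

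HOXA3 had the smallest p of the 6 genes for feeding level. In psoas its values were 6.32, 6.48, 6.23 and 6.22 in the restricted animals 2, 3, 5 and 8, against 5.43, 5.34, 5.71 and 5.50 in the high-fed animals 1, 4, 6 and 7. The 2 feeding levels did not overlap in psoas, as was so for 4.98% of all tested probe sets, 2.42% in that direction. In diaphragm its values were 6.41, 6.79, 6.75 and 7.29 in the restricted animals, against 6.46, 5.50, 6.08 and 5.89 in the high-fed animals. There the high-fed animal 1 lay above the restricted animal 2, so that the groups overlapped. In diaphragm 0 of the 8 probe sets had feeding levels that did not overlap, against 4.88% of all.

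The animal means of HOXA3 were 6.56 ± 0.17 under restriction and 5.74 ± 0.24 on high feeding (SD, n = 4 each). The difference was 0.82 ± 0.14 (SE), or 1.77-fold, with an unadjusted p of 0.000385 that ranked 6th among 11467, and an adjusted p of 0.278 that did not pass. It was 0.82 ± 0.12 (SE, adjusted p = 0.313) in psoas and 0.83 ± 0.24 (0.477) in diaphragm. The muscle difference of HOXA3 was -0.50 under restriction and -0.49 on high feeding. In order, the means were 6.81 in restricted diaphragm, 6.31 in restricted psoas, 5.98 in high-fed diaphragm and 5.50 in high-fed psoas. Restricted psoas and high-fed diaphragm, next to each other in that order, lie closer together than the SD of 0.40 in high-fed diaphragm.

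Over 15 alternatives the HOXA3 difference stayed between 0.72 and 0.93, with adjusted p from 0.115 to 0.631. With the actin difference as a covariate it was 0.84. The list mean of hepatocyte markers in diaphragm was 3.30 to 6.59 under restriction and 4.63 to 6.18 on high feeding, and that of fibroblast markers in diaphragm was 8.07 to 8.88 under restriction and 8.21 to 8.67 on high feeding. In psoas the fibroblast list was 7.28 to 8.05 under restriction and 7.78 to 8.05 on high feeding. No marker of these lists was called between feeding levels. Diaphragm HOXA3 was highest within each feeding level in the animal whose hepatocyte and fibroblast lists were both highest. That was animal 8 under restriction (hepatocyte list 6.59, fibroblast list 8.88) and animal 1 on high feeding (6.18 and 8.67). In the other animals the hepatocyte list did not keep the order of HOXA3. Restricted animal 3 had the next highest HOXA3, 6.79, with the lowest list, 3.30. High-fed animal 4 had the lowest HOXA3, 5.50, with the next highest list, 6.03. The fibroblast list was lowest where HOXA3 was lowest, in animals 2 (8.07) and 4 (8.21). The part of either cell type in the values was not tested.

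SKAP2 probe set 2 had animal means of 4.04 to 4.12 under restriction and 4.26 to 4.36 on high feeding. The groups did not overlap, as was so for 5.97% of all tested probe sets. The difference was small, -0.22 ± 0.07 (SE, unadjusted p = 0.016, adjusted p = 0.317), and all psoas values behind it were under 4. SKAP2 probe set 1 overlapped, with a difference of -0.14 ± 0.12 (adjusted p = 0.64).

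The other genes did not pass the test for feeding level. HOXD8 averaged 7.29 ± 0.35 under restriction and 7.67 ± 0.16 on high feeding (SD, n = 4 each), a difference of -0.38 ± 0.18 (SE, adjusted p = 0.427). HOXD10 differed by -0.34 ± 0.19 (0.489), HOXA9 by 0.06 ± 0.25 (0.941), and MEIS2 by 0.10 ± 0.10 (0.71) and 0.13 ± 0.11 (0.622) on its 2 probe sets.

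**Figure D4:**
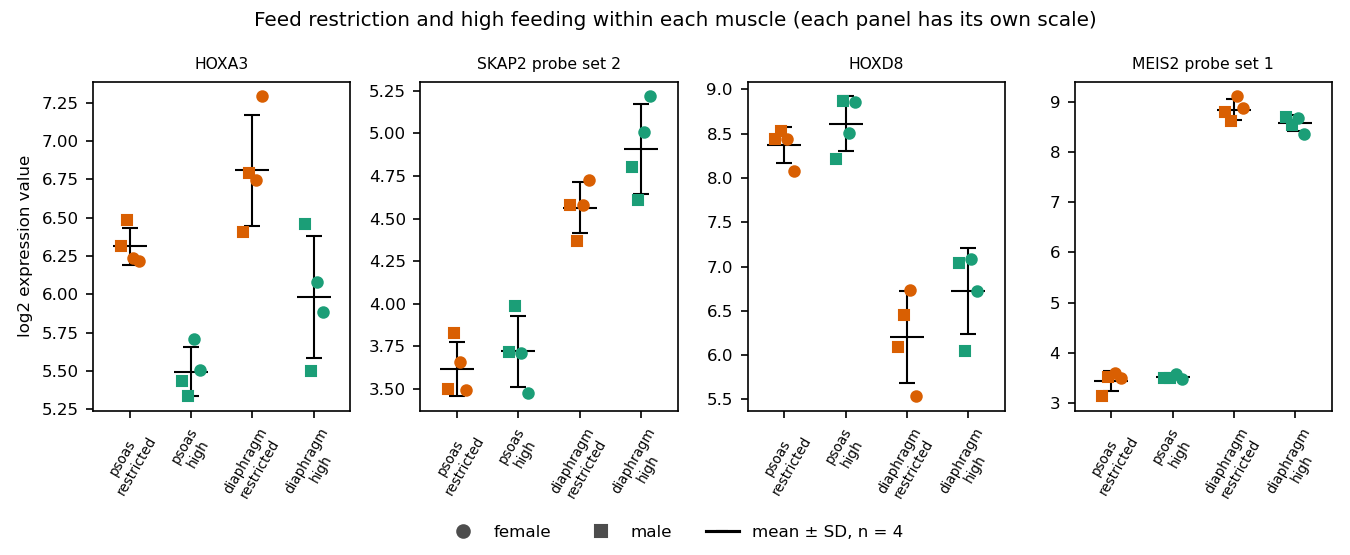
Log2 expression value (vertical axis, own scale per panel) of HOXA3, SKAP2, HOXD8 and MEIS2 by muscle and feeding level, circles for females and squares for males, with the mean and SD of 4 arrays. For HOXA3 the restricted psoas arrays (6.22 to 6.48) lie above the high-fed ones (5.34 to 5.71), while in diaphragm the groups overlap.

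The differences between psoas and diaphragm within single animals were then compared between feeding levels. Of the 8 probe sets 0 were called by limma, as were 0% of all, with 1 at an unadjusted p under 0.05. This was MEIS2 probe set 2, at -3.24 under restriction and -2.84 on high feeding (unadjusted p = 0.0242, adjusted p = 0.787). MEIS2 probe set 1 had -5.41 under restriction and -5.06 on high feeding (adjusted p = 0.807). In diaphragm alone MEIS2 averaged 8.84 ± 0.20 under restriction and 8.57 ± 0.16 on high feeding (SD, n = 4 each), and psoas was under 4 on both probe sets, so that the diaphragm carried the measured part. HOXA9 had a muscle difference of 4.30 under restriction and 3.77 on high feeding (adjusted p = 0.86).

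Between the sexes 0 of the 8 probe sets were called by limma, against 0.183% of all, and 1 had an unadjusted p under 0.05. The animal means of females and males did not overlap for 0 of the 8, against 4.4% of all. HOXA9 averaged 8.82 ± 0.31 in females and 8.17 ± 0.47 in males (SD, n = 4 each), a difference of 0.65 ± 0.25 (SE, unadjusted p = 0.0327, adjusted p = 0.509). In diaphragm it measured 7.58, 7.11, 6.42 and 6.75 in the females 5, 6, 7 and 8, against 7.16, 5.14, 6.02 and 5.62 in the males 1, 2, 3 and 4. Male 1 lay among the females and the groups overlapped. The muscle difference by sex and the feeding difference by sex called 0 of the 8 probe sets by limma and 0% of all, with 1 and 0 at an unadjusted p under 0.05.

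KDM6A, an X-linked histone demethylase that removes the Polycomb mark, was the list gene that changed by sex. It was higher in females by 1.15 ± 0.10 (SE, adjusted p = 0.00367). Within diaphragm alone its adjusted p was 0.0411, and within psoas alone 0.0768. The diaphragm call was lost in 7 of 8 fits without 1 animal (differences of 1.06 to 1.28 over the 8, adjusted p from 0.0489 to 0.254), with no filter (0.153) and without the covariate (0.0602). Whether the sex difference differed between the muscles is not read from these calls.

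Similarity of pattern was measured by Pearson's correlation over the 16 arrays, which hold 2 muscles of 8 animals, so that any gene with a large muscle difference correlates. The genes most like HOXA9 were SH3BGR (r = 0.962), SNX5 (0.953) and C7H6orf125 (0.947). Those most like HOXD8 were ZBED4 (0.964), HOXA9 itself (0.937) and LOC100154873 (0.933), and for HOXD10 they were VKORC1L1 (0.925), NXT1 (0.918) and FBXO31 (0.911). MEIS2 and SKAP2 were each other's nearest gene (0.976), followed by TSPAN12 (0.962 with MEIS2 and 0.963 with SKAP2), then SH3KBP1 for MEIS2 (0.962) and SMIM7 for SKAP2 (0.960). HOXA3, with its small muscle difference, had lower values, with AGTR1 (0.847), IVD (0.804) and COPS4 (0.801).

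After removal of muscle, sex and feeding level MEIS2 and SKAP2 had an r of -0.017. That r includes the MEIS2 psoas values, all under 4, so it does not tell whether the genes vary together. The HOX genes of the psoas-high group had r = 0.594 for HOXA9 with HOXD8 and 0.481 for HOXD8 with HOXD10, against 0.156 for HOXA9 with HOXD10. HOXA9 and HOXA3, which are opposite between the muscles, had r = 0.604 in what was left and -0.344 before. HOXD10 and SKAP2 had -0.59. The psoas array of animal 7 held the outlying HOXD10 value, 6.45, and the lowest value of SKAP2 probe set 1, 4.36. How far each r of HOXD10 rests on that array was not tested.

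The 3 genes nearest to each after that removal were others than before. They were CAMK2N1 (0.821), PRDX4 (0.800) and RAB13 (0.779) for HOXA9, RDX (0.887), ING2 (0.837) and ITGB1 (0.822) for HOXD8, and LOC100523244 (0.880), CDKN1B (0.860) and LMOD3 (0.851) for HOXD10. They were ATIC (0.873), AEBP1 (0.858) and C4BPA (0.857) for HOXA3, SS18 (0.780), SHMT1 (0.770) and SMC4 (0.740) for MEIS2, and LOC733579 (0.867), HNRNPL (0.776) and RCBTB2 (0.745) for SKAP2. They are the highest of 5830 tested probe sets with 1 symbol over 16 arrays, and are a description of these arrays. Those of MEIS2 rest in part on psoas values under 4, where differences are not read. Those of HOXD10 rest in part on its outlying psoas value in animal 7.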

How the data were processed

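The authors deposited log2 expression values, used here without further scaling. GCRMA made them, per the submitters' processing notes (no version given). It corrects background by probe sequence and equalises arrays, so that shifts shared by most genes are removed and low values are compressed. Probe sets were named through the platform's annotation (10099 with 1 symbol, 198 with several, 13826 with none). The 124 controls were not tested. The tests were limma's (version 3.58.1, R 4.3.3), with lmFit and eBayes, over the 11467 probe sets with a log2 value of at least 4 in at least 4 of 16 arrays. Every adjusted p is limma's by Benjamini-Hochberg over all of these, called under 0.05. Muscles were compared on 16 arrays (covariates sex and feeding), feeding and sex on 8 animal means, and interactions on differences within animals or on animal means. In lists, the brightest tested probe set stood for a gene.

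The members, lists and alternatives were chosen with earlier results of these data known. From each list the text names the genes called (up to 5 by adjusted p) or the 2 of smallest p, and for each member the 3 genes of highest correlation. Other genes were named after their values were seen. The labels' animal numbers pair the muscles, and the residuals of an animal's 2 arrays correlated at 0.0724 to 0.257, positive in 8 of 8. The fits were tested on simulated data. Alternatives changed the filter, scaling, variance model, covariates, animal block, RNA quality covariate and the animals left out. The number of arrays limits the precision.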

Additional observations from a re-analysis of the deposited data

Results flagged for a closer look

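Over the tested probe sets, thus without SKAP2 probe set 3, 80 groups of 4 or 8 arrays were examined. Of these, 8 held a value that stood apart from the rest by Dixon's criterion, where chance gives about 1 in 20 groups. The groups of 4 lie within those of 8, so that they are not independent. Of the 8, 4 were of HOXD10, 3 of MEIS2 and 1 of HOXA9. The HOXD10 psoas value of animal 7, 6.45, stood apart from the next, 5.10, among all 8 psoas arrays and among the 4 females. The HOXD10 psoas value of animal 1, 4.33, lay below the other males. The HOXD10 diaphragm value of animal 8, 3.61, lay below the other females, the nearest at 4.20. HOXA9 of animal 3 in psoas, 10.88, lay above the other males, the nearest at 10.21. MEIS2 probe set 1 of animal 2, 3.14, lay below the other psoas arrays, the nearest at 3.48, and the other males, the nearest at 3.49. MEIS2 probe set 2 of animal 5, 2.38, lay below the other psoas females, the nearest at 2.58. Both MEIS2 values are under 4, where differences are not read.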

How the results depend on the processing

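The direction of each of the 8 tested probe sets between the muscles was the same in each of the 16 alternatives in which it was tested, and no feeding, sex or interaction call of theirs was gained. Over all probe sets, 3094 were called between the muscles, 2162 to 2906 without 1 animal each and 405 in animals 4, 6, 7 and 8 alone, where fewer arrays enter. With the animal as a block 3836 were called between the muscles, and with the actin difference as a covariate 2373. By sex 21 were called, 39 with the animal as a block and 13 to 23 without 1 animal each. By feeding 0 to 1 were called without 1 animal each. By feeding within psoas 2 were called with no filter and 0 to 1 without 1 animal each. Within diaphragm these were 1 with no filter, 2 without the covariate and 0 to 2 without 1 animal each. For the feeding difference by sex, 0 to 1 were called without 1 animal each. The causes were not tested. Of single-gene results under alternatives, 1174 kept their side of the threshold and 18 lost the call. Of these 18, 9 were KDM6A within diaphragm (adjusted p from 0.0558 to 0.254), 5 ALDH1A1, and 1 each SNF8, LNPK, RING1 and CTCF. The animal block changed no call of a member. Direction was not kept in every result that kept its side. HOXA9 by feeding level was 0.06, and -0.02 with the actin difference as a covariate. These counts hold no gained calls. TGIF1, SMUG1, ATP5G3, MYOD1, MEF2A and CBX3, not called in the main fit, were called under some alternatives, as given above. Values under 4, as for MEIS2 in psoas, give bounds only.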
